A study of Mus musculus with 36 samples.

Results

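Lipolysis enzymes and regulators were represented by 6 genes, Pnpla2, Lipe, Mgll, Abhd5, G0s2 and Pnpla3, followed through the differentiation of mouse brown pre-adipocytes in culture. They were chosen by name, and all 6 were found among the 55536 genes listed in each library. RNA sequencing was done on 36 libraries from 2 clonal Rxra-/- lines, clone 48 and clone 66, each of which had been given back Rxra by a hygromycin-selected retrovirus. The returned receptor was either wild type (RxraWT) or the form labelled S22A, in which a serine that is phosphorylated after insulin stimulation is replaced by alanine (RxraSA). Every line, controls included, therefore carried the Cas9-made frameshift knockout and the virus. Cells were grown to confluence in medium that already held insulin and T3, and were taken at that point (day 0). They were also taken after 2 days with dexamethasone, IBMX and indomethacin added to this medium (day 2). The last were taken after 4 more days in insulin and T3 alone (day 6). Each clone, genotype and day had 3 libraries, so that 12 libraries stood at each day and 6 in each genotype at each day. The label text calls these 3 technical replicates while the study describes them as independent, and p-values then measure only the spread between these libraries. Each clone is a single founder cell's progeny and was sequenced in a pool of its own (clone 48 in pool 1, clone 66 in pool 2), so that clone and pool cannot be told apart. IBMX, present between days 0 and 2, is a phosphodiesterase inhibitor that raises cyclic AMP.

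Lipolysis releases fatty acids from the triglyceride of lipid droplets in a chain of hydrolysis steps. ATGL, encoded by Pnpla2, removes the first fatty acid, hormone-sensitive lipase, encoded by Lipe, acts mainly on the resulting diglyceride, and monoglyceride lipase, encoded by Mgll, removes the last one. CGI-58, encoded by Abhd5, binds and activates ATGL, whereas the small protein G0S2 binds and inhibits it, and catecholamines drive the chain through cyclic AMP and protein kinase A while insulin restrains it. PNPLA3 is a close relative of ATGL that sits on lipid droplets and can bind CGI-58.

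The 6 genes lie on 5 mouse chromosomes, and all positions are in GRCm38. Pnpla2 (ENSMUSG00000025509.15) is at chr7:141455198-141460743 on the plus strand, and Lipe (ENSMUSG00000003123.15) is at chr7:25379527-25398710 on the minus strand. Mgll (ENSMUSG00000033174.17) spans chr6:88724412-88828360 and Abhd5 (ENSMUSG00000032540.16) chr9:122351608-122381524, both on the plus strand. G0s2 (ENSMUSG00000009633.3), at chr1:193272161-193273217 on the minus strand, is the shortest, with 871 exon bases in 2 exon blocks. Pnpla3 (ENSMUSG00000041653.5) is at chr15:84167837-84187236 on the plus strand. All 6 are annotated as protein coding, and reads were counted over exons. Lipe shares 918 exon bases with an antisense gene, 4732471J01Rik (40 to 218 counts per library), Abhd5 shares 950 with A730085K08Rik (0 to 54 counts) and Mgll shares 167 with Gm26588 (0 to 175 counts). Pnpla3 shares 105 with Gm49513, a transcript on its own strand (0 to 7 counts). Counting did not use strand and left out reads that fell on the exons of both partners, so that reads of these stretches are missing from both.

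Promoter windows are shown for 4 genes, since RXRα acts with its partners at DNA. Of these, Pnpla2 and Abhd5 were highest at day 2, and G0s2 and Pnpla3 at day 6. Mgll was also highest at day 6, but its windows are not shown. The windows come from RefSeq on GRCm38.p6 and run from 250 bases before the start site to 50 bases from it, written 5′ to 3′ on the gene's strand, with every match to one of 7 searched motifs in capitals. They are chr7:141454938-141455237 (plus) for Pnpla2, chr9:122351366-122351665 (plus) for Abhd5, chr1:193273139-193273438 (minus) for G0s2 and chr15:84167566-84167865 (plus) for Pnpla3.
Pnpla2: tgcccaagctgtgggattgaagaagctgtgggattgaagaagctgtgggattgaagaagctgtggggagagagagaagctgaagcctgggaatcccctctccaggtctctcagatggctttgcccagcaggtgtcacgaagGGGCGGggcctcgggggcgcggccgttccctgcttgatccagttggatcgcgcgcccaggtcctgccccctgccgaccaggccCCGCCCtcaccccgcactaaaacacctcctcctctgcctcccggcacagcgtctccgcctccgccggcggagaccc
Abhd5: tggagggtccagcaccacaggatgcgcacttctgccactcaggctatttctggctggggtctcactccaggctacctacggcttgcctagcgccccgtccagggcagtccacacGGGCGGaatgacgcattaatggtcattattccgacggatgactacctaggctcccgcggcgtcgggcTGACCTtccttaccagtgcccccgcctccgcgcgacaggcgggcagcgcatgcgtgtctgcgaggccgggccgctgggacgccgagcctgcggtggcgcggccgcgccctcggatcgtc
G0s2: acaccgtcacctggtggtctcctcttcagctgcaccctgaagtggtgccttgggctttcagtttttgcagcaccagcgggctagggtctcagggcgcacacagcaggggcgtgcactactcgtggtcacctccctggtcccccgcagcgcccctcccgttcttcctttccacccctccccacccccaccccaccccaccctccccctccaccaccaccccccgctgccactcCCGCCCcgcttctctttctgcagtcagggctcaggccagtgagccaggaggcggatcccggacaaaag
Pnpla3: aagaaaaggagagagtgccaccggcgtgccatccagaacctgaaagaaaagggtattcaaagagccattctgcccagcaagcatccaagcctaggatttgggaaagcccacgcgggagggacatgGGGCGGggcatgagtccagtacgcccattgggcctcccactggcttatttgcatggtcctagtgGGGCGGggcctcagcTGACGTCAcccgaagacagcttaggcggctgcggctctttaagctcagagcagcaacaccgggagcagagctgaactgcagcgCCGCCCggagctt

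The motifs were searched on both strands as a nuclear receptor half-site (AGGTCA, in 16.3% of 32817 promoter windows), a direct repeat of it with 1 base between (AGGTCANAGGTCA, 0.0396%), the cyclic AMP response element (TGACGTCA, 1.79%), an E-box (CACGTG, 7.15%), a forkhead motif (GTAAACA, 3.65%), a GC box (GGGCGG, 35.6%) and a TATA box (TATAAA, 13.6%). Each direct repeat also counts as half-sites. The Abhd5 window held a half-site on the reverse strand, with its first base at −69 from the start site, and a GC box at −136. The Pnpla3 window held the cyclic AMP response element at −46 and 3 GC boxes, at −125, −61 and 38. The Pnpla2 window held GC boxes at −109 and −26, and that of G0s2 held 1 at −18. All 6 genes had at least 1 window, 8 in all, since Lipe and Mgll each had 2. Those of Lipe and Mgll are not shown and held the only E-box and forkhead matches, beside GC boxes. The E-box was at −155 for Lipe and at −44 for Mgll. The forkhead motif was at −119 in the other Lipe window and at −241 for Mgll. Neither the direct repeat nor the TATA letters were found in any of the 8 windows. A match describes letters in these windows and is not a measured binding site.

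The libraries held 11351078 to 24349263 counts in genes, with a median of 18338726. Levels are given as RPKM, reads scaled to the length of the exons and to library size, the latter adjusted by TMM, so that genes can be compared per length. Rxra itself, whose counts join transcripts of the disrupted gene and of the retrovirus, was at 29.5 ± 7.29, 99.3 ± 16.8 and 45 ± 9.83 RPKM (SD, n = 12) at days 0, 2 and 6, and its log2 difference between RxraSA and RxraWT was −0.07, −0.03 and 0.03 on the same days (adjusted p = 1 at each by edgeR). The summed level of 6 mature adipocyte markers (Adipoq, Plin1, Cidec, Fabp4, Cebpa and the member Lipe) lay between 14.3 and 38.1 RPKM at day 0, between 1017 and 2231 at day 2 and between 2260 and 4163 at day 6. The 5 progenitor markers (Pdgfra, Pdgfrb, Dlk1, Cd34 and Ly6a) summed to between 54.5 and 116 RPKM at day 0, between 8.07 and 18.6 at day 2 and between 8.13 and 29.4 at day 6, with Dlk1 at 1 count at most. The cells are labelled brown pre-adipocytes, and the 6 brown markers were uneven. Ucp1 reached only 1, 2 and 5 counts at most at the respective days, and Cidea, Prdm16 and Dio2 at most 27, 21 and 20 in any library. Ppargc1a had 166 to 376, 287 to 482 and 181 to 508 counts at the 3 days. Ebf2 had 3 to 638, 9 to 1272 and 14 to 1107. All 6 brown markers together summed to at most 14.9 RPKM. These marker sums moved with the day in the same libraries as the lipolysis genes. In these bulk libraries a different number of adipocytes and a different amount of RNA per adipocyte cannot be told apart.

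All 6 genes were lowest in pre-adipocytes and higher at day 6, but they did not follow 1 course. The ATGL gene Pnpla2 and its activator Abhd5 were highest at day 2 and then fell, Lipe was 1.22-fold lower at day 6 than at day 2, and the ATGL inhibitor G0s2 together with Mgll and Pnpla3 kept rising to day 6. No difference between RxraSA and RxraWT was called for any of the 6 at any day. The plot of levels by day shows these courses.

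**Figure D1:**
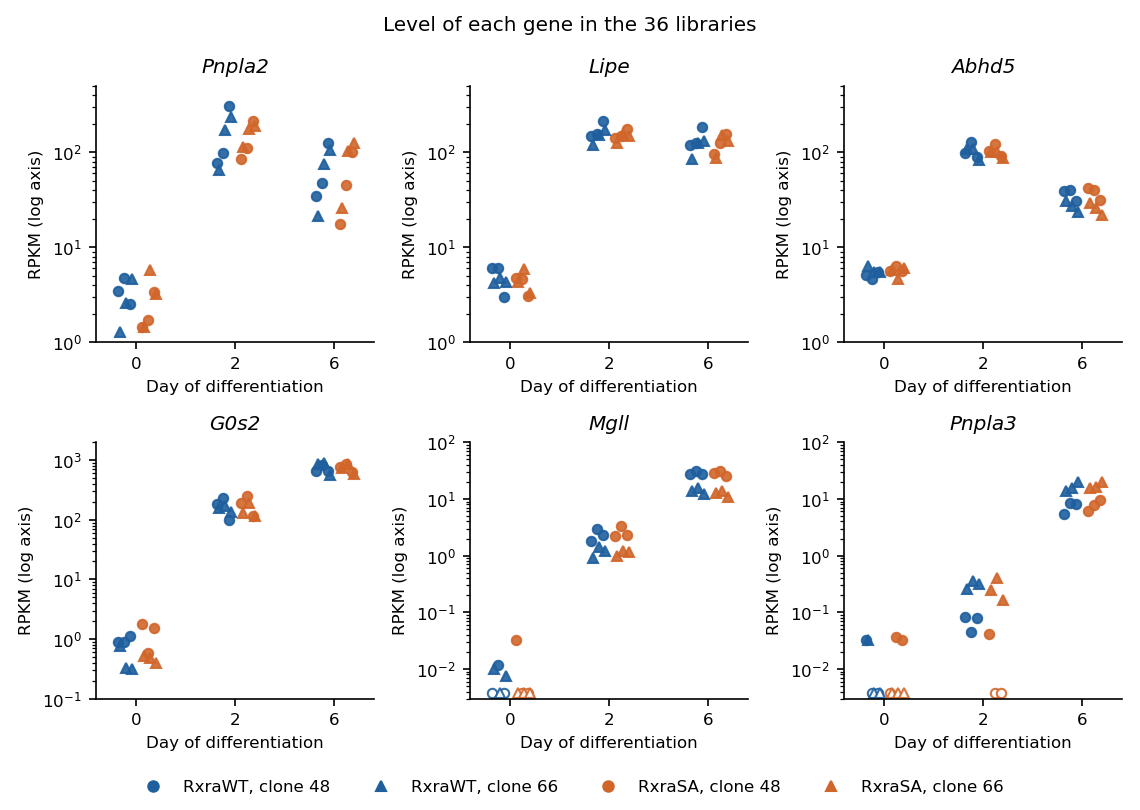
Level of each of the 6 genes in RPKM on a log axis against the day of differentiation, 1 point per library (circles clone 48, triangles clone 66, blue RxraWT, orange RxraSA), with points spread sideways only to separate them. Open symbols at the lower edge of the Mgll and Pnpla3 panels are libraries with 0 counts, which have no place on a log axis. Pnpla2 and Abhd5 are highest at day 2, while G0s2, Mgll and Pnpla3 are highest at day 6.

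Pnpla2 stood at 1.3 to 5.82 RPKM at day 0 (median 2.9), at 65.1 to 306 at day 2 (median 143) and at 17.6 to 127 at day 6 (median 61.6). Every library at days 2 and 6 was above every library at day 0, and the ranges of days 2 and 6 overlapped. The mean was 3.03 ± 1.48, 154 ± 74.1 and 69.1 ± 41.5 RPKM at the 3 days (SD, n = 12 each). From day 0 to day 2 Pnpla2 rose 50.9-fold (log2 fold change 5.67 ± 0.393 SE, adjusted p = 5.56e-15 by edgeR's quasi-likelihood test with Benjamini-Hochberg adjustment over 16723 genes), and at day 6 it was still 22.8-fold above day 0 (4.51 ± 0.373, adjusted p = 6.92e-13). Between days 2 and 6 it fell 2.23-fold (log2 fold change −1.16 ± 0.323, adjusted p = 0.00222 by edgeR), with the day 6 library lower than the same-numbered day 2 library in 12 of 12 cases. Inside clone 48 the fall was called (−1.27, adjusted p = 0.0299), and inside clone 66 it was of like size but not called (−1.07, adjusted p = 0.0648).

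Lipe, whose product is the main diglyceride lipase of adipocytes, ranged from 2.98 to 6.12 RPKM at day 0 (median 4.45), from 119 to 214 at day 2 (median 151) and from 85.4 to 185 at day 6 (median 127). The later days did not overlap with day 0 but overlapped with each other. Lipe rose 34.1-fold by day 2 (log2 fold change 5.09 ± 0.146, adjusted p = 1.24e-25 by edgeR) and was 28.1-fold above day 0 at day 6 (4.81 ± 0.144, adjusted p = 3.86e-25). The difference between days 2 and 6 was small, at 1.22-fold lower (−0.29 ± 0.123, adjusted p = 0.0419), although each day 6 library was lower than its same-numbered day 2 library in 12 of 12 cases. That call was lost with other scalings (adjusted p = 0.0611 with RLE size factors, 0.121 with library size alone), with DESeq2 (0.0573), without the clone term (0.0507), inside each clone (0.184 and 0.205) and on leaving out replicate 1 or 2 of clone 48 or any of the 3 of clone 66 (0.0676 to 0.103).

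Abhd5, which encodes the ATGL activator, had the smallest spread within groups of the 6 at days 2 and 6. It ranged from 4.63 to 6.34 RPKM at day 0 (median 5.58), from 83.6 to 128 at day 2 (median 101) and from 22.1 to 42.3 at day 6 (median 30.7), and no 2 of these ranges overlapped. It rose 18.3-fold from day 0 to day 2 (log2 fold change 4.19 ± 0.101, adjusted p = 1.50e-27 by edgeR). It then fell 3.23-fold from day 2 to day 6 (−1.69 ± 0.0909, adjusted p = 1.54e-17), and ended 5.7-fold above day 0 (2.51 ± 0.0942, adjusted p = 2.08e-22).

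G0s2, which encodes the ATGL inhibitor, had 6 to 26 counts at day 0, or 0.308 to 1.77 RPKM (median 0.676). It stood at 98.2 to 255 RPKM at day 2 (median 162) and at 559 to 883 at day 6 (median 757), again without overlap between days. The rise was 215-fold by day 2 (log2 fold change 7.75 ± 0.222, adjusted p = 1.19e-25 by edgeR) and a further 4.56-fold from day 2 to day 6 (2.19 ± 0.159, adjusted p = 4.53e-14). Over the whole course G0s2 rose 976-fold (9.93 ± 0.237, adjusted p = 5.45e-28).

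Mgll, the monoglyceride lipase gene, was almost unread at day 0, with 0 to 2 counts per library and 5 counts in all, 8 of the 12 libraries being at 0. It then stood at 0.893 to 3.38 RPKM at day 2 (median 1.62) and at 11 to 31 at day 6 (median 20.6), and no ranges overlapped. The pooled, depth-scaled count at day 2 was 424 times that at day 0 (exact 95% interval 181 to 1307, counting error only), and at day 6 it was 4865 times (2084 to 14983). From day 2 to day 6 Mgll rose 11.4-fold (log2 fold change 3.51 ± 0.119, adjusted p = 5.31e-23 by edgeR).

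Pnpla3 was the last to appear. It had 0 or 1 count per library at day 0 (4 in all, 8 libraries at 0) and 0 to 11 counts at day 2 (55 in all), or 0 to 0.41 RPKM. At day 6 all 12 libraries were between 5.42 and 20.2 RPKM (median 11.7), above every library of the earlier days. The pooled count at day 2 was 16 times that at day 0 (exact 95% interval 5.9 to 60.7), but this rested on clone 66, where it was 58.6 times from 49 against 1 counts (10 to 2362), while in clone 48 it was 2.24 times from 6 against 3 counts (0.479 to 13.9), an interval that includes 1. At day 6 the pooled count was 1149 times that at day 0 (448 to 4219). From day 2 to day 6 the fitted rise was 74.5-fold (log2 fold change 6.22 ± 0.224), and the pooled ratio was 185 in clone 48 (84.8 to 505) and 58.4 in clone 66 (44.1 to 79.1). Pnpla3 passed the filter on low counts almost only through day 6, so no p-value is given for this rise.

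The calls can be set against how much of the transcriptome moved. All 6 members passed the filter on low counts, but Mgll did so only through days 2 and 6 and Pnpla3 almost only through day 6 (1 of 12 day 2 libraries was over the cutoff), so that both had to differ from day 0 and Pnpla3 from day 2. Of the other members, 4 of 4 were called higher at day 2 than at day 0, where 35.8% of all genes tested were called higher and 37.5% lower. At day 6 against day 0 4 of 4 were again called higher, beside 32.9% higher and 35.4% lower of all genes. Between days 2 and 6, 2 of the 5 members other than Pnpla3 were called higher (Mgll and G0s2) and 3 lower (Pnpla2, Lipe and Abhd5), beside 31.9% higher and 30.1% lower of all genes. Scaling by library size alone moved the median log2 change of all genes to −0.27 at day 2 and −0.22 at day 6 against day 0, from −0.02 and −0.03 with TMM, and the share of higher genes among those called from 48.9% to 33.6% and from 48.2% to 34.9%. Under it the 4 were still called higher than at day 0 on both later days.

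The order of the 6 genes by level per length changed with the day. At day 0 the mean levels ran from Abhd5 (5.54 RPKM) through Lipe (4.53), Pnpla2 (3.03) and G0s2 (0.8) to Pnpla3 and Mgll near 0, and among these only G0s2 and Pnpla3 were neighbours whose ranges did not overlap. At day 2 G0s2 (165 RPKM), Lipe (155), Pnpla2 (154) and Abhd5 (102) stood together with overlapping ranges, and G0s2 exceeded Lipe in only 8 of 12 libraries. Mgll (1.82) and Pnpla3 (0.166) were then lower than these 4 in every library. At day 6 G0s2 (741 RPKM) was above every other member in every library, followed by Lipe (127), Pnpla2 (69.1), Abhd5 (31.9), Mgll (20.8) and Pnpla3 (12.2), whose ranges overlapped from each to the next. Lipe exceeded Pnpla2 in 12 of 12 libraries at day 6 and in 6 of 12 at day 2.

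The ratios of activator and enzyme to inhibitor inside each library, where library size cancels, restate the changes of the single genes and are given as a description, with no test between days. The ratio of Abhd5 to G0s2, per exon length, was 3.2 to 17.7 at day 0 (median 8.94), 0.479 to 0.921 at day 2 (median 0.632) and 0.0305 to 0.0599 at day 6 (median 0.0444). Its mean was 15-fold lower at day 6 than at day 2 (log2 difference −3.90). The ratio of Pnpla2 to G0s2 had medians of 3.35, 0.902 and 0.0714 at days 0, 2 and 6, and was 11.4-fold lower at day 6 than at day 2 (log2 difference −3.51). Its ranges at days 2 and 6, from 0.42 to 3.11 and from 0.0231 to 0.211, did not overlap. The ratio of Lipe to Pnpla2 had medians of 1.51, 1 and 2.17 and was 1.99-fold higher at day 6 than at day 2 (log2 difference 0.99), with overlapping ranges of 0.7 to 1.9 and 1.04 to 5.4. The plot of ratios shows the day 2 and day 6 groups of the first 2 ratios apart. These are ratios of RNA and not of protein.

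**Figure D2:**
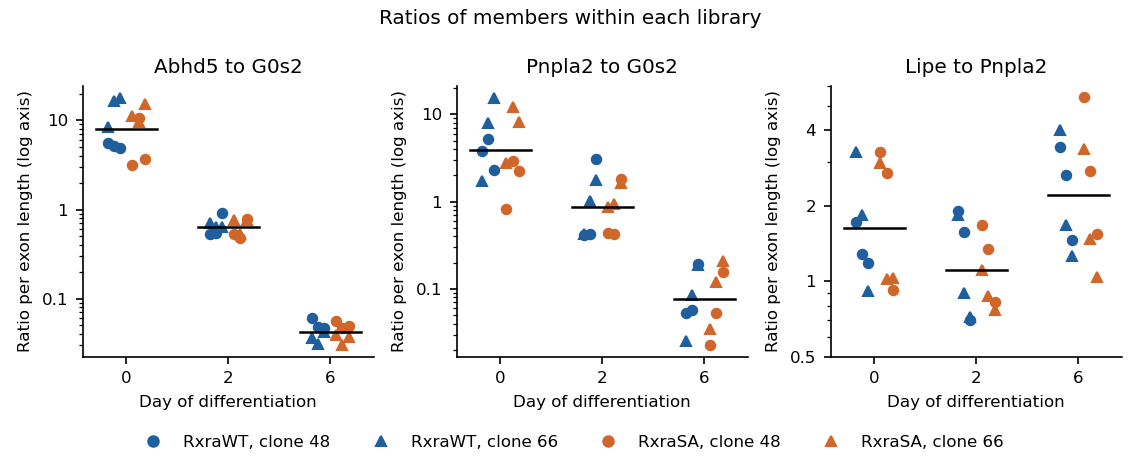
Ratio per exon length of Abhd5 to G0s2, Pnpla2 to G0s2 and Lipe to Pnpla2 inside each library on a log axis against the day (circles clone 48, triangles clone 66, blue RxraWT, orange RxraSA), with bars at the geometric mean of the 12 libraries of a day. The median of Abhd5 to G0s2 goes from 8.94 at day 0 to 0.632 at day 2 and 0.0444 at day 6.

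The comparison of RxraSA with RxraWT asks whether loss of the phosphorylated serine altered the RNA of these genes. None of the 6 members was called at day 0, 2 or 6, and neither was any of the 16723 genes (0% at each day by edgeR), while 139, 162 and 125 genes had an unadjusted p under 0.05 and DESeq2 also called 0. The same holds for the change over time, where 0 members and 0% of genes differed between genotypes from day 0 to 2, from day 0 to 6 or from day 2 to 6, with 144, 128 and 153 genes at an unadjusted p under 0.05 and 0 called by DESeq2. It also holds where the genotype difference of clone 66 was set against that of clone 48 (0 members and 0% of genes at days 0, 2 and 6, with 283, 214 and 200 genes at an unadjusted p under 0.05 and 0 called by DESeq2). Same-numbered RxraWT and RxraSA libraries of a clone and day deviated together, and the test above leaves this pairing out. With the pairs as a block within each day, 704, 692 and 477 genes had an unadjusted p under 0.05 at days 0, 2 and 6, where 836 would be 5% of the genes tested. No member was called with the pairs either, and 1 gene was, at day 2 (Chn1, named after its value was seen, log2 difference −0.74 ± 0.0942 SE, adjusted p = 0.00172 by edgeR with the pairs and 1 without). Each 95% interval is therefore given without the pairs and then with them.

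At day 6 Pnpla2 ranged from 21.4 to 127 RPKM in RxraWT (median 61.6) and from 17.6 to 126 in RxraSA (median 72.7). Its log2 difference was 0.00 with an interval from −0.92 to 0.92 (adjusted p = 1 by edgeR), and with the pairs it was −0.06, from −0.52 to 0.40, the widest of the 6 either way. Lipe ranged from 85.4 to 185 RPKM in RxraWT and from 88.2 to 155 in RxraSA (log2 difference −0.05, interval −0.41 to 0.30, with the pairs −0.23 to 0.12). Both groups overlapped almost fully for each of these lipases.

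Abhd5 at day 6 was at 23.7 to 39.7 RPKM in RxraWT and at 22.1 to 42.3 in RxraSA, with the narrowest interval (−0.26 to 0.25, with the pairs −0.14 to 0.12). G0s2 was at 559 to 883 and 594 to 861 RPKM respectively (log2 difference 0.00, interval −0.45 to 0.45, with the pairs −0.14 to 0.17). Mgll was at 12.3 to 31 and 11 to 30.7 RPKM (−0.07, interval −0.38 to 0.23, with the pairs −0.24 to 0.09), and RxraSA was the lower of the same-numbered libraries in 5 of 6 pairs (log2 differences from −0.16 to 0.07). Pnpla3 was at 5.42 to 20.2 and 6.06 to 19.6 RPKM (0.07, interval −0.36 to 0.51, with the pairs −0.14 to 0.29). For none of the 6 did the groups separate.

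At day 2 the log2 difference was −0.11 for Pnpla2 (interval −1.03 to 0.81), −0.09 for Lipe (−0.45 to 0.26), 0.06 for Mgll (−0.27 to 0.38), −0.03 for Abhd5 (−0.28 to 0.23) and 0.03 for G0s2 (−0.41 to 0.48). With the pairs these intervals were −0.41 to 0.50 for Pnpla2, −0.26 to 0.09 for Lipe, −0.14 to 0.28 for Mgll, −0.15 to 0.11 for Abhd5 and −0.13 to 0.19 for G0s2. Pnpla3 then had 24 counts in the 6 RxraSA libraries and 31 in the 6 RxraWT libraries, a depth-scaled ratio of 0.749 (exact 95% interval 0.421 to 1.32, counting error only). RxraSA was the lower of the same-numbered libraries in 5 of 6 pairs. Its counts were 1 against 5 in clone 48 and 23 against 26 in clone 66. At day 0 the log2 difference was −0.20 for Pnpla2 (−1.18 to 0.79), −0.12 for Lipe (−0.48 to 0.24), 0.06 for Abhd5 (−0.20 to 0.32) and 0.24 for G0s2 (−0.51 to 0.99), and Mgll and Pnpla3 were too near 0 counts to compare. With the pairs the day 0 intervals were −0.78 to 0.38 for Pnpla2, −0.31 to 0.07 for Lipe, −0.07 to 0.21 for Abhd5 and −0.19 to 0.71 for G0s2. No difference between genotypes was called for the 3 ratios at day 6 (log2 differences of −0.03 for Abhd5 to G0s2, −0.08 for Pnpla2 to G0s2 and 0.01 for Lipe to Pnpla2, adjusted p = 0.976 for each by two-sided exact permutation test of 6 against 6 without the pairs). Inside a clone 3 libraries stand against 3, and an exact permutation test cannot go below p = 0.1 there.

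**Figure D3:**
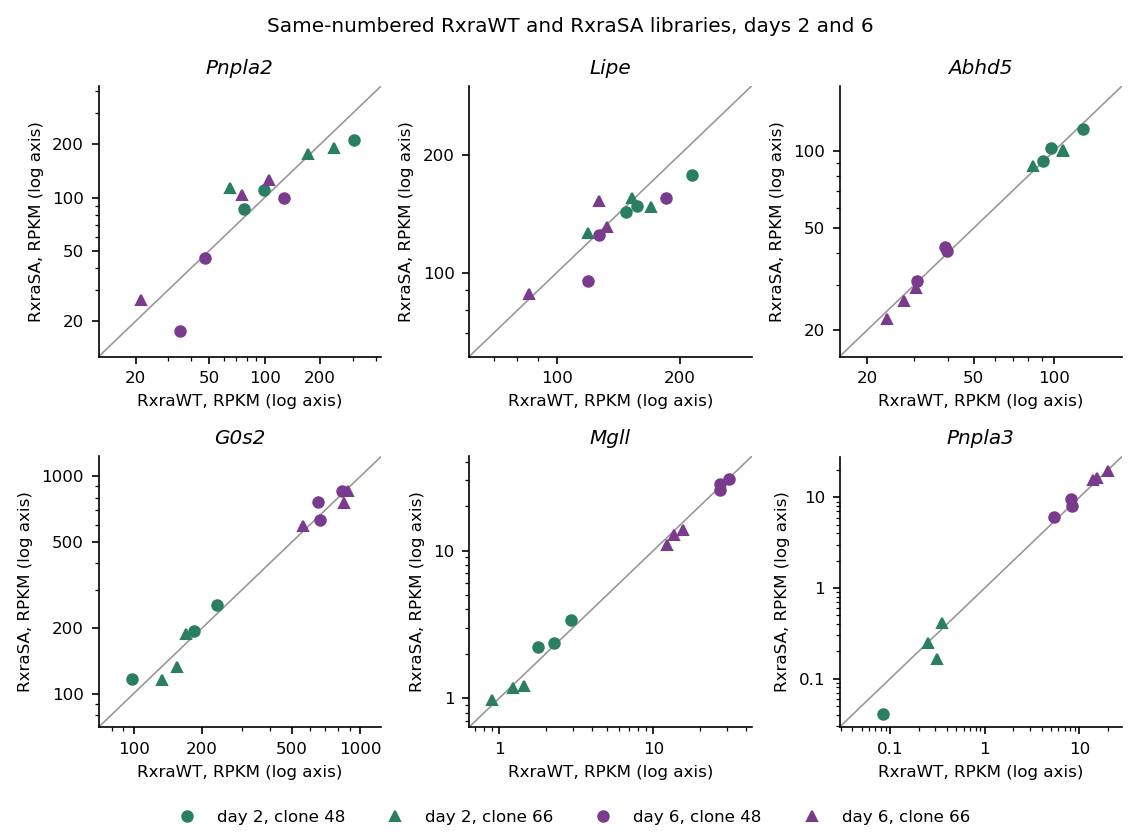
RPKM in the RxraSA library against that in the same-numbered RxraWT library of the same clone at days 2 and 6, on log axes with the line of equality (green day 2, purple day 6, circles clone 48, triangles clone 66). Pnpla3 lacks the 2 pairs at day 2 in which the RxraSA library had 0 counts. Points scatter on both sides of the line, most widely for Pnpla2 (−0.99 to 0.45 on the log2 scale at day 6).

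Pnpla2 differed far more between libraries of 1 group than the other members did. In clone 48 the 3 RxraWT libraries of day 2 stood at 77.6, 99.7 and 306 RPKM and the 3 RxraSA libraries at 85.7, 110 and 213. In clone 66 they stood at 65.1, 171 and 237 and at 114, 177 and 191. At day 6 the lowest and highest were 34.9 and 127 (clone 48 RxraWT), 17.6 and 100 (clone 48 RxraSA), 21.4 and 105 (clone 66 RxraWT) and 26.2 and 126 RPKM (clone 66 RxraSA). The SD of log2 CPM within the groups of days 2 and 6 was 1.01 for Pnpla2, larger than that of 99.7% of the 6109 genes of like or higher abundance, whose median was 0.215. It was 0.303 for Lipe, 0.239 for Mgll, 0.208 for Abhd5, 0.388 for G0s2 and 0.324 for Pnpla3.

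This spread was shared by the genotypes. The RxraWT and RxraSA libraries with the same number stood highest together in 4 of 4 combinations of clone and day at days 2 and 6 for Pnpla2, Mgll and G0s2, in 3 of 4 for Abhd5 and Pnpla3 and in 2 of 4 for Lipe. Across the 36 libraries the deviations of Pnpla2 from its group means followed the first component of all genes' deviations (62.5% of their variance, r = 0.98), which 18.6% of genes followed at an absolute r over 0.9, and they followed the slope of each library's deviations on transcript GC content (r = 0.80). For Lipe the r with the first component was 0.56, for Mgll −0.05, for Abhd5 −0.76, for G0s2 −0.42 and for Pnpla3 0.22. With the GC slope it was 0.59 for Lipe, 0.19 for Mgll, −0.52 for Abhd5, −0.40 for G0s2 and 0.05 for Pnpla3. The GC slope and the first component themselves went together (r = 0.79), so these are not separate associations. The deviations of Pnpla2 went with those of Lipe (r = 0.68) and against those of Abhd5 (r = −0.76). These r share libraries and depth, and what set the libraries of a group apart was not tested.

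The clones differed in several members. At day 0 only G0s2 was called of the 6, beside 23.7% of all genes, being at 0.592 to 1.77 RPKM in clone 48 (median 1.01) and at 0.308 to 0.76 in clone 66 (median 0.441), 2.41-fold lower in clone 66 (log2 −1.27 ± 0.341, adjusted p = 0.00651 by edgeR). Its counts there were 26 at most, and without replicate 3 of clone 66 the call was lost (−1.09, adjusted p = 0.0515). At day 2 Mgll and Pnpla3 were called, beside 30% of all genes, and at day 6 Mgll, Abhd5 and Pnpla3, beside 26.2%.

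Mgll was lower in clone 66 on both later days. It stood at 1.79 to 3.38 RPKM in clone 48 and at 0.893 to 1.44 in clone 66 at day 2, and at 25.6 to 31 and 11 to 15.5 RPKM at day 6, without overlap. The difference was 2.14-fold at each of these days (log2 −1.10 ± 0.166, adjusted p = 8.43e-06 at day 2, and −1.10 ± 0.156, adjusted p = 3.98e-06 at day 6, by edgeR). Pnpla3 was higher in clone 66, in contrast to Mgll. At day 2 it had 0 to 2 counts per library in clone 48 and 5 to 11 in clone 66, a pooled ratio of 7.03 (exact 95% interval 3.01 to 20.1, counting error only). By the fit Pnpla3 was 8.06-fold higher in clone 66 at that day (log2 3.01 ± 0.469, adjusted p = 1.34e-05 by edgeR). At day 6 it was at 5.42 to 9.5 RPKM in clone 48 and at 14 to 20.2 in clone 66, 2.22-fold higher without overlap (log2 1.15 ± 0.176, adjusted p = 1.35e-05). Abhd5 at day 6 was 1.4-fold lower in clone 66 (−0.49 ± 0.11, adjusted p = 0.00113), with 22.1 to 30.6 against 30.8 to 42.3 RPKM. Pnpla2 and Lipe were called at no day.

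Pnpla3 passed the filter on low counts almost only through day 6, so its clone differences over time rest on few counts at days 0 and 2. In the main fit the clones were called different in the course of Pnpla3. The change of Pnpla3 from day 2 to day 6 was smaller in clone 66 (difference of log2 changes −1.86, adjusted p = 0.0298 by edgeR). The call was lost under DESeq2 (−2.05, adjusted p = 0.0674) and without replicate 2 or 3 of clone 48 (−1.50 and −1.54) or replicate 1 or 2 of clone 66 (−1.87 and −1.57). Its change from day 0 to day 2 was larger in clone 66 (4.49, adjusted p = 0.0446), from counts of 6 against 3 in clone 48 and 49 against 1 in clone 66. Without replicate 1 or 3 of clone 48, or 2 or 3 of clone 66, that call was lost as well. Pnpla3 was the only member called for these 2 differences, beside 6.84% of genes from day 0 to 2 and 6.18% from day 2 to 6. From day 0 to day 6 no member was called, beside 3.85% of genes, with Abhd5 at −0.53 (adjusted p = 0.0511) and G0s2 at 1.30 (adjusted p = 0.0613). With the replicate number as a block both passed (adjusted p = 0.00897 and 0.0107).

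The other genes of the pathway were followed in 7 lists. No gene of any list was called between genotypes. Of all genes tested, 35.8% were higher and 37.5% lower at day 2 than at day 0, 32.9% and 35.4% at day 6 than at day 0, and 31.9% and 30.1% at day 6 than at day 2, and each list's counts stand beside these shares. Genes with fewer than 6 of 12 libraries over the count cutoff at 1 of the compared days passed the filter only through other days, so counts are also given without them. Of 6 tested genes of the PNPLA family, which holds 2 members, 3 were higher and 2 lower at day 2 than at day 0, 4 higher and 2 lower at day 6 than at day 0, and 3 higher and 2 lower at day 6 than at day 2 (median log2 changes 1.95, 3.27 and 0.35, against −0.02, −0.03 and 0.01 for all genes tested). Without Pnpla3 and Pnpla5, 2 of 4 were higher and 2 lower against day 0 on both later days, and 1 was higher and 2 lower at day 6 than at day 2. Pnpla5, another patatin-like lipase, had at most 1 and 2 counts at days 0 and 2 and stood at 0.684 ± 0.53 RPKM at day 6, the only day at which any library (9 of 12) was over the cutoff. Pnpla8, a mitochondrial and peroxisomal phospholipase, rose to 35.5 ± 7.76 RPKM at day 2 and fell to 25.1 ± 5.71 at day 6 (−0.52 ± 0.101, adjusted p = 2.90e-05), as Pnpla2 did.

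Among 8 tested glyceride and ester lipases of other families, 3 were higher and 2 lower at day 2 than at day 0, 6 higher and 1 lower at day 6 than at day 0, and 5 higher and 2 lower at day 6 than at day 2 (medians 0.32, 1.17 and 0.91). Lpl, the lipoprotein lipase that works outside the cell, was at 62.3 ± 24.3, 307 ± 57.3 and 388 ± 99.6 RPKM at the 3 days. Abhd6, a second monoglyceride lipase, rose by 1.12 ± 0.195 on the log2 scale from day 2 to day 6 (adjusted p = 6.41e-06), as Mgll did. The carboxylesterases Ces1d and Ces1f rose by 2.52 ± 0.387 and 2.11 ± 0.271 over the same days (adjusted p = 8.29e-07 and 2.54e-08), from means of 0.266 and 0.308 RPKM.

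Of 12 droplet proteins and direct lipase partners, 10 were higher and 1 lower at day 2 than at day 0, 8 higher and 3 lower at day 6 than at day 0, and 5 higher and 5 lower at day 6 than at day 2 (medians 1.30, 0.64 and 0.20). Without Plin1, Plin5 and Cidea, 7 of 9 were higher and 1 lower at day 2 and 6 higher and 3 lower at day 6 against day 0, and without Plin5 and Cidea 4 of 10 were higher and 4 lower at day 6 than at day 2. Plin1, the droplet coat that holds CGI-58 away from ATGL until it is phosphorylated, went from 0.0417 ± 0.0269 RPKM at day 0 to 63.4 ± 9.64 at day 2 and 127 ± 22.9 at day 6, and so rose between days 2 and 6 (log2 change 1.00 ± 0.116, adjusted p = 3.17e-09 by edgeR) while Abhd5 fell. Cidec, a droplet fusion protein, was at 266 ± 42.9 RPKM at day 2 and 326 ± 30.7 at day 6, a difference that was not called (adjusted p = 0.185). Hilpda, another inhibitor of ATGL, differed from G0s2 in its course, with 10 ± 1.14, 21.3 ± 4.27 and 14.7 ± 1.59 RPKM and a fall from day 2 to day 6 (−0.53 ± 0.0829, adjusted p = 9.53e-07). Plin5, the coat of oxidative tissues, passed the filter only through day 2 and was under 1 RPKM on average at each day. Fabp4, the fatty acid carrier that binds hormone-sensitive lipase, was at 9.84 ± 3.12, 422 ± 75.8 and 766 ± 141 RPKM. Cidea had 27 counts at most.

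In the cyclic AMP and protein kinase A arm, 5 of 14 genes were higher and 4 lower at day 2 than at day 0, 6 higher and 4 lower at day 6 than at day 0, and 5 higher and 3 lower at day 6 than at day 2 (medians 0.13, 0.22 and 0.12). The shares at day 2 against day 0 were thus 35.7% and 28.6%, the first close to that of all genes. Without Adrb3 the counts against day 0 were 4 higher and 4 lower of 13 at day 2 and 5 higher and 4 lower at day 6. Adrb3, the adipocyte β-adrenergic receptor, had at most 2 counts at day 0 and 14 at day 2 and reached 22.2 ± 9.42 RPKM at day 6 (log2 change from day 2 6.87 ± 0.199, adjusted p = 6.58e-25 by edgeR, with 0, 7 and 12 of 12 libraries over the cutoff at the 3 days). The adenylyl cyclase Adcy5 rose by 3.69 ± 0.105 between days 2 and 6 (adjusted p = 3.33e-25). Adcy7, a second cyclase, fell by day 2 (−3.17 ± 0.133, adjusted p = 4.67e-21), as did Prkar1a, a regulatory subunit of protein kinase A (−1.69 ± 0.213, adjusted p = 1.10e-08).

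In the anti-lipolytic arm, 8 of 12 genes were higher and 2 lower at day 2 than at day 0, 9 higher and 3 lower at day 6 than at day 0, and 8 higher and 3 lower at day 6 than at day 2 (medians 1.46, 1.54 and 0.68). Without Pde3b, Adora1, Hcar2 and Ffar2, 4 of 8 were higher and 2 lower at day 2 and 5 higher and 3 lower at day 6 against day 0, and without Pde3b 7 of 11 were higher and 3 lower at day 6 than at day 2. The Gi-coupled receptors for short-chain fatty acids (Ffar2), ketone bodies (Hcar2), lactate (Hcar1) and adenosine (Adora1) were all at 1.43 RPKM or less on average at day 0. At day 6 they were at 30.7 ± 9.52, 21.3 ± 3.43, 32.7 ± 8.34 and 2.34 ± 0.71 RPKM, and all 4 rose from day 2 to day 6 (log2 changes of 0.93, 1.45, 1.48 and 3.60, adjusted p of at most 1.16e-09 by edgeR). Pde3b, the phosphodiesterase through which insulin lowers cyclic AMP in adipocytes, had at most 3, 8 and 22 counts at the 3 days. Exon overlaps with other genes were looked up for the members only. Whether such overlaps lowered the counts of Pde3b or of other list genes was not tested.

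Of 10 transcriptional regulators of the lipases, 8 were higher and 1 lower at day 2 than at day 0, likewise at day 6 against day 0, and 3 were higher and 4 lower at day 6 than at day 2 (medians 2.12, 2.38 and 0.14). Without Irf4, 7 of 9 were higher and 1 lower against day 0 on both later days. Pparg, the partner of RXRα in adipocytes, was at 25.5 ± 3.48, 135 ± 18.4 and 177 ± 28.8 RPKM and rose from day 2 to day 6 (0.38 ± 0.0792, adjusted p = 8.35e-05). Cebpa, which acts with it, fell over these days from 272 ± 32.6 to 185 ± 20.7 RPKM (−0.57 ± 0.143, adjusted p = 8.54e-04 by edgeR). The counts of Rxra, which join transcripts of the disrupted gene and of the retrovirus, fell as well (−1.15 ± 0.111, adjusted p = 4.75e-11 by edgeR). Nr1h3, which encodes the oxysterol receptor LXRα, rose (1.16 ± 0.0914, adjusted p = 3.26e-13), as did Srebf1, a lipogenic factor (0.37 ± 0.148, adjusted p = 0.029). Irf4, a fasting-responsive regulator of the lipases, was at 2.17 ± 0.685 and 3.09 ± 1.74 RPKM on these days (adjusted p = 0.0592).

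Of 8 genes that handle fatty acids and glycerol, 5 were higher and 2 lower at day 2 than at day 0, 5 higher and 3 lower at day 6 than at day 0, and 4 higher and 3 lower at day 6 than at day 2 (medians 2.87, 4.12 and 0.36). Acsl1, which activates fatty acids, had the course of Abhd5, with 3.85 ± 0.704, 458 ± 40.5 and 170 ± 27.7 RPKM (day 6 against day 2 −1.44 ± 0.0957, adjusted p = 4.12e-15 by edgeR). The fatty acid transporter Cd36 was at 0.493 ± 0.173, 175 ± 56.7 and 287 ± 83.7 RPKM. The triglyceride-forming Dgat1 fell slightly from 366 ± 62 to 305 ± 36.5 RPKM between days 2 and 6 (−0.25 ± 0.0686, adjusted p = 0.00185), and Dgat2 was at 125 RPKM on both days.

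**Figure D4:**
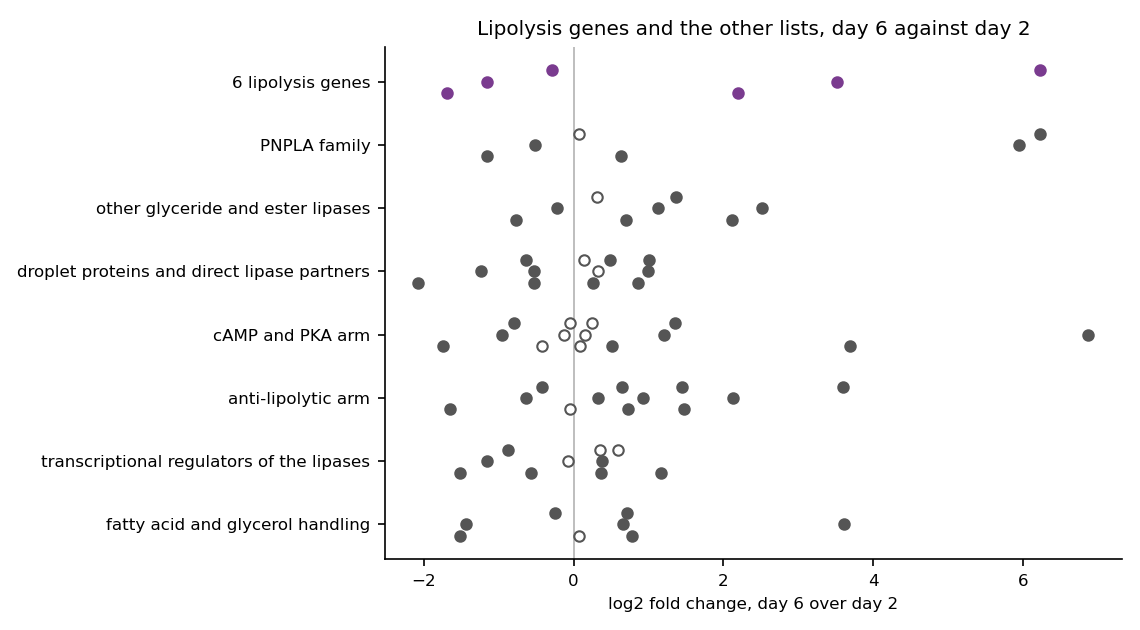
The log2 fold change from day 2 to day 6 of the 6 lipolysis genes (purple) and of the tested genes of each list (grey), 1 point per gene, filled where the adjusted p was under 0.05 and open where it was not, with points spread vertically only to separate them. The PNPLA family row repeats Pnpla2 and Pnpla3. Pnpla3 and Mgll lie far to the right, at 6.22 and 3.51, and Abhd5 at −1.69.

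The genes most like each member over the 36 libraries, by Pearson's r of log2 CPM among 9380 genes, are given as a description, since all points share libraries and days. They were Mapk6 (r = 0.988), Rreb1 and Dlc1 (0.986 each) for Pnpla2, Sh2b2 (0.993), Lrig1 (0.992) and Aifm2 (0.991) for Lipe, and Slc25a25, Fitm2 (0.99 each) and Ptges2 (0.989) for Abhd5. For G0s2 they were Adig (0.992), A530016L24Rik (0.99) and Fabp4 (0.989), and for Mgll Itga7, Retn (0.992 each) and Nr1h3 (0.989). Pnpla3 was followed less closely, by Fam162a (0.977), Gbe1 (0.974) and Gapdh (0.972). Only genes with a mean log2 CPM of 3 or more could be listed, which Mgll and Pnpla3 did not reach. None of the other members was among the 3 genes most like another member.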

How the data were processed

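RNA was sequenced from 36 libraries on an Illumina NextSeq after stranded total RNA preparation. Per the labels and the study's methods, the authors aligned reads with STAR (2.7.0d) to mm10 (GRCm38) and counted read pairs over exons of GENCODE genes with featureCounts (1.6.2) without using strand. The deposited files hold these raw counts per gene, with 55536 genes per library. Gene names were matched by identifier to GENCODE M21.

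Counts were tested in edgeR (4.0.16, R 4.3.3) by the quasi-likelihood test in its earlier form, after TMM scaling and the filterByExpr filter, with genotype-and-day groups and clone as terms over all 36 libraries, following the study's model. Clone contrasts came from a fit with 1 coefficient per clone, genotype and day. P-values were adjusted by Benjamini-Hochberg over 16723 genes and called under 0.05. Each SE of a log2 change is its absolute value divided by the square root of the quasi-likelihood F statistic, not a fitted standard error. The 95% intervals of the genotype differences rest on this SE. RPKM used union exon length and TMM library sizes, and log2 CPM a prior count of 2. Pooled-count ratios carry exact 95% intervals, which cover counting error only. Ratios within libraries were tested by permutation (100000 resamples for 12 against 12, exact below that), adjusted over 6 tests, and the p-values between days are not given, since these ratios restate single genes' changes. Only the edgeR comparison of RxraSA with RxraWT at day 6 was tried on simulated counts. These were drawn independently, without the deviations that same-numbered libraries shared. The other comparisons, the ratios, the pooled intervals and the blocks were not checked in this way.

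Same-numbered RxraWT and RxraSA libraries of a clone and day deviated together, since the correlation of their deviations from group means was 0.176 to 0.93 (median 0.827) over 9381 genes in 18 of 18 pairs, so the numbers paired the libraries, and intervals are also given from a fit with a block per pair. Whether they also pair libraries across days or clones is not given in the sources used here.

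The members and lists were chosen with earlier results of these data known. Named from each list were up to 4 called genes of the largest change between days 0 and 6, plus Plin1, Plin5, Hilpda, Cidec, Adrb3, Pde3b, Pparg and Rxra, and for each member the 3 genes of highest correlation with a mean log2 CPM of 3 or more. Alternatives were other scalings, filters and tests (DESeq2 1.42.0 among them), the replicate block, a GC correction and leaving out each replicate number of a clone (its 6 libraries).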

Additional observations from a re-analysis of the deposited data

Results flagged for a closer look

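Among the members, 2 results stood out because the change over time differed between the clones by a test of the difference itself. Both concern Pnpla3, which passed the filter on low counts almost only through day 6. Pnpla3 changed more from day 0 to day 2 in clone 66 than in clone 48 (difference of log2 changes 4.49, adjusted p = 0.0446 by edgeR). This rested on 3 and 6 counts in clone 48 and 1 and 49 counts in clone 66 over 6 libraries each, and the fitted value depends on how near-zero counts are treated. From day 2 to day 6 Pnpla3 changed less in clone 66 (−1.86, adjusted p = 0.0298 by edgeR). The pooled ratios were 58.4 in clone 66 and 185 in clone 48 (exact 95% intervals of 44.1 to 79.1 and 84.8 to 505). These intervals cover counting error only and not the spread between libraries, and the ratio of clone 48 rests on 6 counts at day 2. The call was lost under DESeq2 and on leaving out some of the replicates. Clone and sequencing pool cannot be told apart. No library stood out as a single far value among 32 groups of 6 libraries examined by Dixon's criterion, which chance alone meets in about 5% of groups.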

How the results depend on the processing

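The 14 day comparisons of single members given as fitted values kept their direction under every alternative, and 268 of 280 values kept their side of the threshold. Those of Mgll and Pnpla3 against day 0 are not among them. Pnpla3 at day 2 against day 0 did not pass the filter with the compared days alone (5 members called) and was not called in clone 48 alone (0.73, adjusted p = 0.555 by edgeR). Among the 14 the exceptions were Lipe between days 2 and 6 (11 values) and Pnpla2 between days 2 and 6 in clone 66 alone. No genotype comparison of a member or gene list was called under any alternative run, and 168 of 168 list counts stayed within 1.5 times. GC correction, each clone alone for single genes and the list counts with the block were chosen after seeing the data.

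The clone results were the least stable. The count at day 0 was 0 to 1 on leaving out replicates and that at day 2 was 1 with the compared days alone, where Pnpla3 did not pass the filter. For clone by time from day 0 to day 2 the count was 0 with no filter or the compared days alone and 0 to 1 on leaving out replicates. From day 0 to day 6 it was 1 with no filter, GC correction, a minimum of 1 CPM or scaling by library size alone, 2 with DESeq2, edgeR's version 4 test or the compared days alone, and 0 to 1 on leaving out replicates. From day 2 to day 6 it was 0 with DESeq2 and 0 to 1 on leaving out replicates. With the replicate block the counts were 2 from day 0 to 2 (G0s2 and Pnpla3), 2 from day 0 to 6 (Abhd5 and G0s2) and 2 from day 2 to 6 (Abhd5 and Pnpla3), also with GC correction added, and apart from Chn1 in the report the blocks changed no other call given there. This block is the number 1, 2 or 3, which joins cultures of different clones.

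Differences between genotypes near 0 changed sign without being called. In clone 66 alone they became 0.28 (Pnpla2), 0.03 (Lipe) and −0.07 (Abhd5) at day 0, 0.03 (Pnpla2), −0.09 (Mgll) and −0.07 (G0s2) at day 2 and 0.10 (Lipe) at day 6. Pnpla2 at day 2 became 0.07 with the replicate block, 0.05 with such a block set per day and 0.10 with GC correction and block. Leaving out replicates gave −0.58 to 0.07 for Pnpla2 at day 0, −0.21 to 0.07 at day 2 and −0.12 to 0.01 for Lipe at day 6. The genotype difference of the Pnpla2 to G0s2 ratio became 0.19 with medians and 0.38 in clone 66 alone (−0.19 to 0.15 on leaving out replicates), and that of Lipe to Pnpla2 −0.04 and −0.24 (−0.12 to 0.07), while that of Abhd5 to G0s2 was −0.05 to 0.01 on leaving out replicates. The log2 difference of Lipe to Pnpla2 between days 2 and 6 was 1.05 and 0.94 inside clones 48 and 66, where its permutation test did not pass. The cause was not tested for any of these. Depth limits Mgll and Pnpla3 at day 0, and Pnpla3 at day 2, to a few counts per library.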

Other observations

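The deviations from group means of 10 regulators of the lipases were set beside those of Pnpla2, with r from −0.79 to 0.97. Over the 36 libraries those of Foxo1, a transcription factor restrained by insulin signalling, stood at r = 0.97, Srebf1 at 0.94, Rxra at 0.89, Snai1 at 0.79, Egr1 at 0.47, Nr1h3 at −0.72 and Pparg at −0.79, while Cebpa (0.28), Cebpb (0.23) and Irf4 (−0.06) were nearer 0. With G0s2 the 10 ranged from −0.46 (Egr1) to 0.56 (Pparg). These are descriptions over libraries that share a common component, and no test was made of them. The Rxra counts among them join transcripts of the disrupted gene and of the retrovirus.

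Markers of other cell types were low in sum, but not all of them were silent. The macrophage markers summed to between 1.99 and 9.86 RPKM over all libraries. Among them Cd68 averaged 5.52, 2.98 and 6.59 RPKM at days 0, 2 and 6, and Lyz2 had up to 88 counts at day 0. Adgre1 and Ptprc had 1 count at most. Endothelial markers summed to at most 0.173 RPKM, and epithelial markers to at most 0.421 with Epcam at 0. Skeletal muscle markers summed to at most 7.66 RPKM, with Acta1 at 1.48, 0.379 and 5.16 RPKM on average at the 3 days and Myod1 at 0.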
